A study of Mus musculus with 2 samples.

Results

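Hypothalamic, choroid plexus and ependymal genes were followed in total RNA of the left cerebral cortex. The set holds 35 of the 55536 annotated genes, 26 of them hypothalamic, 6 of the choroid plexus and 3 of ciliated cells. The genes were taken as a named list because several had been seen to be far higher in replicate 1 of this series, so their difference between the libraries is described here and not tested. The animals were 2 female mice aged 25 days, first-generation offspring of a C57BL/6 and CAST cross (strain label B6CASTF1/J), with no treatment named. They form 1 group, with 300 ng of RNA per library. Per the labels these are biological replicates, and each cortex has its own animal number while a single donor identifier covers both, so the spread between them may be technical.

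The hypothalamus lies below the cortex and holds small nuclei of neurons that make peptide hormones and transmitters from larger precursors. Each nucleus is marked by its own peptides and transcription factors, so the set can be read nucleus by nucleus. The choroid plexus is the epithelium inside the ventricles that secretes cerebrospinal fluid, and the ependyma is the layer of ciliated cells that lines them. The cerebral cortex holds none of these nuclei, although cortical neurons and meninges express some of the same genes, such as Cartpt, Th and Zic1.

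Annotated genes held 31191535 expected counts in replicate 1 and 27079700 in replicate 2. An expected count is an estimate in which reads that match several places are divided between them. Markers of cortical projection neurons were present in both libraries: the vesicular glutamate transporter Slc17a7 had a TPM (a transcripts-per-million level, corrected for length) of 596 in replicate 1 and 639 in replicate 2. Ratios below are those of CPM (a counts-per-million level, scaled to the annotated total), replicate 1 over replicate 2. Their exact 95% intervals cover counting error only, and with 1 library per animal no p-value exists. Over 14582 nuclear protein-coding genes with at least 20 counts over both libraries the ratio had a median of 0.995, with the 5th percentile at 0.723 and the 95th at 1.29.

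The promoters of 3 peptide precursors are shown because Pmch and Hcrt had the largest ratios of the set and Pomc, a precursor whose promoter holds the same motif, had a ratio near 1. Each runs 5′ to 3′ on the coding strand from 250 bases before to 50 bases after the RefSeq start on GRCm38.p6, and capitals mark the TATAAA motif. Pmch lies at chr10:88090822-88091121 on the plus strand, Hcrt at chr11:100762882-100763181 on the minus strand and Pomc at chr12:3954695-3954994 on the plus strand.
Pmch: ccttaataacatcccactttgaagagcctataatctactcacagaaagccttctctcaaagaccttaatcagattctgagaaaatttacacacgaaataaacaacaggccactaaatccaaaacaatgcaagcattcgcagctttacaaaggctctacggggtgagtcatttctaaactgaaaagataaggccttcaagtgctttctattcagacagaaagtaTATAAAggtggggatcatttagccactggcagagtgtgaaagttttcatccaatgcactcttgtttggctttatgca
Hcrt: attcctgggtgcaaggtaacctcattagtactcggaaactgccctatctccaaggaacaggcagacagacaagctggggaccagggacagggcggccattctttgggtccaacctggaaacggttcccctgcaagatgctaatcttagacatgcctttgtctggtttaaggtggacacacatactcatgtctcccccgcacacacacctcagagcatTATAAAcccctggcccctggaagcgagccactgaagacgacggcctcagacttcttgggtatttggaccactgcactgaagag
Pomc: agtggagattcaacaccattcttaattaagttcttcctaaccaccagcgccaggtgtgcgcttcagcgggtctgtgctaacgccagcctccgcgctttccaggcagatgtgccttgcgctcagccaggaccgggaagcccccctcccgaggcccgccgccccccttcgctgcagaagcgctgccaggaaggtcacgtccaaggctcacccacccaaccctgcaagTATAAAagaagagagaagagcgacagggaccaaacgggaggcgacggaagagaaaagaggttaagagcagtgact
The motif begins 27 bases before the start in Pmch, 33 in Hcrt and 25 in Pomc. RefSeq windows were found for 27 of the 35 genes, 33 windows in all. On the coding strand between 35 and 20 bases before the start, 4 of these 33 windows (12.1%) held TATAAA, those of Ghrh, Hcrt, Pmch and Pomc, as did 1.84% of all 32851 windows. Anywhere in the window and on either strand, where the reverse strand reads TTTATA, the shares were 21.2% of these windows and 13.6% of all windows. The motif thus stands before precursors with large ratios and before Pomc, with a ratio near 1.

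The lateral hypothalamic peptides differed most. Pmch (ENSMUSG00000035383, chromosome 10, 88091072 to 88092375), the precursor of melanin-concentrating hormone, had 482 counts in replicate 1 and 4 in replicate 2. In TPM this was 35.6 in replicate 1 and 0.350 in replicate 2. The count ratio was 105 (95% interval 40.6 to 386). Replicate 2 thus held almost no Pmch RNA, and in replicate 1 it was the second most abundant gene of the set. Hcrt (chromosome 11, 100761069 to 100762931), the precursor of the arousal peptides orexin A and B, had 120 counts and a TPM of 11.8 in replicate 1 and 0 counts in replicate 2. A count of 0 allows up to 3 counts, 0.111 CPM in that library, so against that floor Hcrt was at least 34.7-fold higher in replicate 1. Its exact 95% interval began lower, at 27.8, and at 16 in the FASTQ-based counts of 68 in replicate 1 and 0 in replicate 2. Together the peptides had 19.3 CPM in replicate 1 and 0.148 CPM in replicate 2. Pmch overlaps Parpbp on the opposite strand, which had 11 counts in replicate 1 and 20 in replicate 2, and no source used here gives whether strand was used in counting, although the labels' spike-in note speaks of stranded libraries.

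In the paraventricular and supraoptic group, Avp and the transcription factors Sim1 and Otp were much higher in replicate 1, while Trh was not. Avp (chromosome 2, 130580620 to 130582554), the vasopressin precursor, had 88 counts in replicate 1 and 3 in replicate 2. Its ratio was 25.5 (8.43 to 126). Oxt (chromosome 2, 130576173 to 130577054), the oxytocin precursor, had 8 counts in replicate 1 and 2 in replicate 2, few enough that the ratio of 3.47 (0.693 to 33.6) spans 1. Avp was therefore the more abundant of these neighbouring genes in replicate 1, with a TPM of 8.88 there against 0.850 for Oxt. Sim1, needed in mice for the neurons of these nuclei, had 31 counts in replicate 1 and 1 in replicate 2, a ratio of 26.9 (4.49 to 1097). In the FASTQ-based counts the Sim1 ratio was lower, at 7.34 (2.61 to 28.5). Otp, a homeobox factor of the same lineage, had 18 counts in replicate 1 and 0 in replicate 2 and was at least 5.21-fold higher in replicate 1 against the same floor, with an exact interval that began at 3.82. Both factors stood at a TPM of at most 0.340 even in replicate 1. The thyrotropin-releasing hormone precursor Trh differed little, with 38 counts in replicate 1 and 24 in replicate 2 (ratio 1.37, 0.803 to 2.40).

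Avp and Oxt share a stretch of coding sequence, shown because reads inside it cannot be assigned to either gene. The longest identical run of their transcripts is 127 bases, in capitals below with 20 differing or matching bases on either side in lower case, and it spans exons 1 and 2 of both genes. It covers bases 144 to 270 of the 577-base Avp-201 and bases 156 to 282 of the 537-base Oxt-201 in GENCODE M21 on mm10, both written 5′ to 3′ on the coding strand. On the genome it runs from chr2:130581133-130582411 on the minus strand in Avp and from chr2:130576328-130576715 on the plus strand in Oxt, with the intron between.
Avp: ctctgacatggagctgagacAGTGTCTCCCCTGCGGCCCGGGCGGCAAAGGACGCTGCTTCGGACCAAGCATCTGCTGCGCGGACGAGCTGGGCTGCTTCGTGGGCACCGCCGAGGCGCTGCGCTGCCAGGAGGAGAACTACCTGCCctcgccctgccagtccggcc
Oxt: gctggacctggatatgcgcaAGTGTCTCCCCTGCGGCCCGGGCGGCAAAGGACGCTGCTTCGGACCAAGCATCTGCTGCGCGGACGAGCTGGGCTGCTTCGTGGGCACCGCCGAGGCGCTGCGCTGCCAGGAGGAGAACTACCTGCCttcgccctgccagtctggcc
The quantification made directly from the FASTQ reads gave Avp 46 counts in replicate 1 and 2 in replicate 2, and Oxt 7.52 in replicate 1 and 6 in replicate 2. The Avp ratio was 20.5 there, and that of Oxt 1.19. The split of reads between the genes, and so the level of Oxt, is uncertain, while the difference in Avp was present in both quantifications.

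Arcuate genes showed no such difference. Agrp, the appetite-stimulating agouti-related peptide, and Ghrh, the growth hormone-releasing hormone precursor, had 0 counts in both libraries. Those zeros allow up to 0.0962 CPM in replicate 1 and 0.111 CPM in replicate 2. Pomc, the precursor of melanocortins and beta-endorphin, had 20 counts in replicate 1 and 19 in replicate 2, a ratio of 0.914 (0.463 to 1.81). Kiss1, the kisspeptin gene, which overlaps Golt1a on the same strand, had 0 counts in replicate 1 and 2 in replicate 2. The dopamine-synthesis enzyme Th had 20 counts in replicate 1 and 24 in replicate 2 (ratio 0.723, 0.379 to 1.37). Cartpt, the precursor of the CART peptides, stood apart with 322 counts in replicate 1 and 160 in replicate 2, a ratio of 1.75 (1.44 to 2.13). At a TPM of 17.9 in replicate 1 and 10.2 in replicate 2 it was the arcuate member with the highest level in both libraries. Summed over the 6 genes the ratio was 1.53 (1.29 to 1.83), and without Cartpt it was 0.772, on the other side of 1.

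The ventromedial transcription factors were close to the counting floor. Fezf1 had 9 counts in replicate 1 and 1 in replicate 2, and Nr5a1, which encodes steroidogenic factor 1, had 2 in replicate 1 and 1 in replicate 2. The Fezf1 ratio of 7.81 had an interval from 1.08 to 342, so its size is hardly defined at this depth.

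Among the remaining hypothalamic genes a moderate excess in replicate 1 was common. Baiap3, a regulator of dense-core vesicle release and recycling, had 713 counts in replicate 1 and 209 in replicate 2 (ratio 2.96, 2.54 to 3.47). It lies opposite Tsr3, which had 244 counts in replicate 1 and 205 in replicate 2, so its counts carry the same doubt about strand as those of Pmch. The orphan receptor Gpr101 had 304 counts in replicate 1 and 102 in replicate 2 (ratio 2.59, 2.06 to 3.27). Prlr, the prolactin receptor, which the choroid plexus also expresses, had 159 counts in replicate 1 and 56 in replicate 2 (ratio 2.46, 1.81 to 3.41). Irs4, an insulin receptor substrate, and Nkx2-1, a homeobox factor that patterns the ventral forebrain and is kept in some cortical interneurons, followed the same direction. Irs4 had 65 counts in replicate 1 and 19 in replicate 2 (ratio 2.97), and Nkx2-1 had 25 in replicate 1 and 6 in replicate 2 (ratio 3.62, 1.45 to 10.8). The Nkx2-1 ratio was 1.86 and the Prlr ratio 1.92 in the FASTQ-based counts, under 2-fold. Zic1, a zinc-finger factor of septum, cerebellum and meninges, was nearly level with 315 counts in replicate 1 and 228 in replicate 2 (ratio 1.20, 1.01 to 1.43). Its TPM ran the other way, 5.12 in replicate 1 and 5.73 in replicate 2, and it lies opposite Zic4, with 59 counts in replicate 1 and 61 in replicate 2.

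Histamine, galanin and reproductive-axis genes were scarce in both libraries. Hdc, the histamine-synthesizing enzyme of the tuberomammillary nucleus, had 12 counts in replicate 1 and 11 in replicate 2. The LIM homeobox factor Lhx9 had 27 counts in replicate 1 and 18 in replicate 2, and the galanin gene Gal had 8 in replicate 1 and 2 in replicate 2. Gnrh1, the gonadotropin-releasing hormone precursor, had 3 counts in each library, and Nms, the neuromedin S gene of the suprachiasmatic nucleus, had 1 in replicate 1 and 0 in replicate 2. None of these 5 had a ratio whose interval left out 1.

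**Figure D1:**
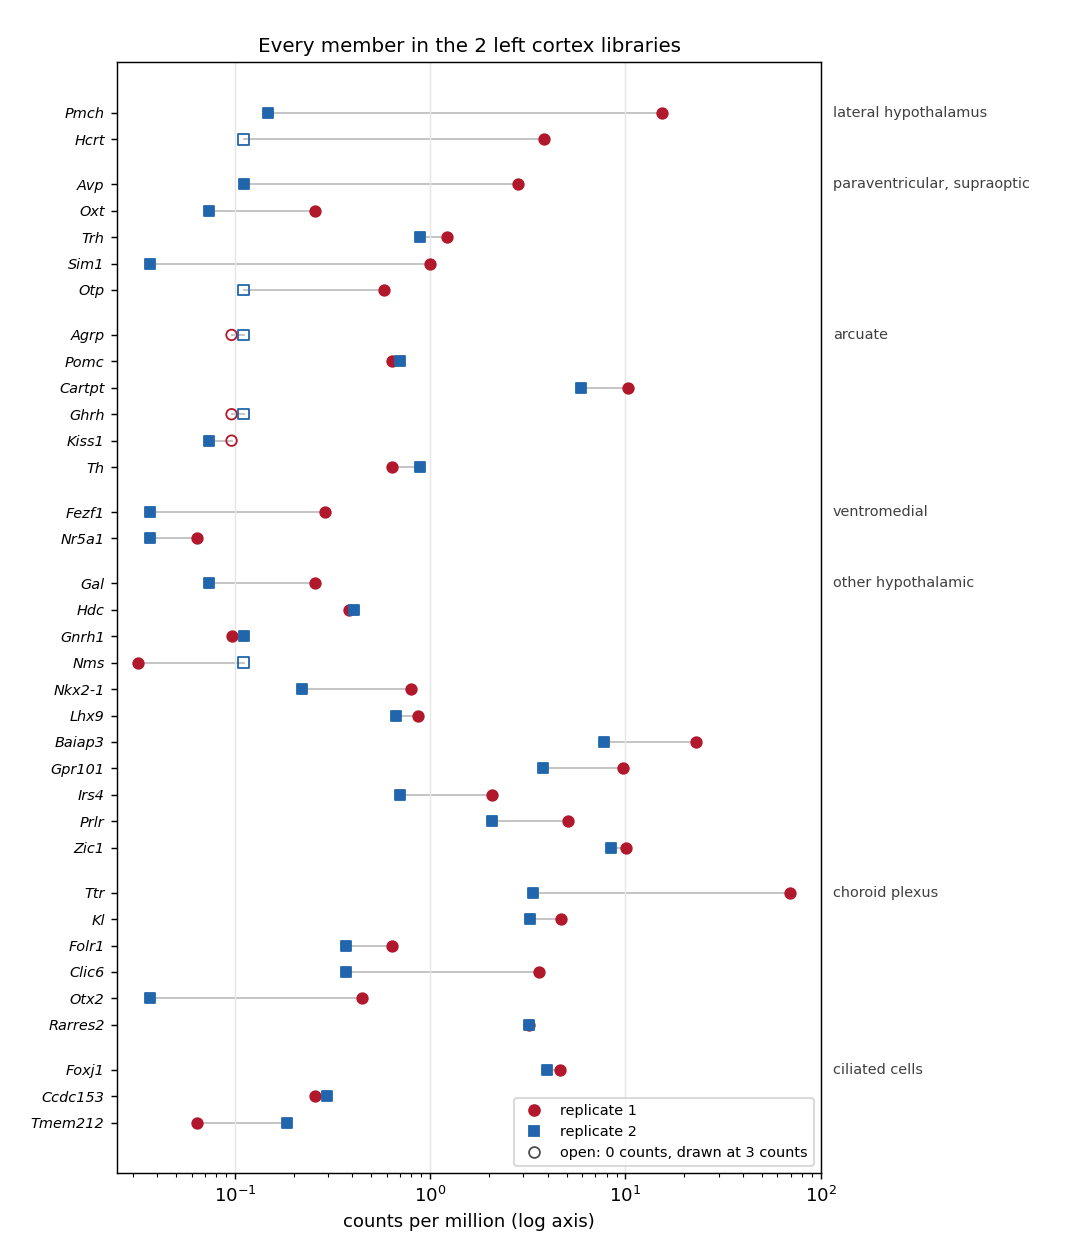
CPM of all 35 genes on a log axis, grouped by role, with red circles for replicate 1 and blue squares for replicate 2; open symbols are 0 counts drawn at the 3-count floor. Wide gaps are seen for Pmch, with 15.5 CPM in replicate 1 and 0.148 in replicate 2, and for Hcrt, Avp, Sim1, Ttr, Otx2 and Clic6, while Pomc, Hdc, Rarres2 and Foxj1 nearly coincide.

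The choroid plexus genes split into a group with a large difference and a group with little or none. Ttr (chromosome 18, 20665280 to 20674321), which encodes transthyretin, the thyroid hormone carrier secreted by the plexus, had 2172 counts in replicate 1 and 91 in replicate 2. In TPM this was 96.0 in replicate 1 and 4.79 in replicate 2, and the ratio was 20.7 (16.8 to 25.8). Ttr was the most abundant gene of the set in replicate 1 but not in replicate 2, where Cartpt, Rarres2, Baiap3 and Zic1 had higher TPM. Clic6 (chromosome 16, 92485736 to 92541243), an intracellular chloride channel family gene, had 113 counts in replicate 1 and 10 in replicate 2 (ratio 9.81, 5.14 to 21). Otx2, the homeobox factor that specifies the plexus, had 14 counts in replicate 1 and 1 in replicate 2 (ratio 12.2, 1.85 to 514). Its TPM differed less, at 0.280 in replicate 1 and 0.140 in replicate 2, where the 1 count was assigned to the 516-base Otx2-203. Clic6 and Otx2 thus had few counts in replicate 2, but they also had far fewer than Ttr in replicate 1. The ratio of Ttr was the largest of these genes.

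Kl, Folr1 and Rarres2 did not follow Ttr. Kl, which encodes the anti-ageing protein klotho and is also expressed by neurons, had 146 counts in replicate 1 and 88 in replicate 2 (ratio 1.44, 1.10 to 1.90). Folr1, the folate receptor that carries folate into cerebrospinal fluid, had 20 counts in replicate 1 and 10 in replicate 2 (ratio 1.74, 0.776 to 4.15). Rarres2, the chemerin gene, had 100 counts in replicate 1 and 87 in replicate 2, a ratio of 0.998 (0.741 to 1.35). The interval of Kl ended below those of Ttr and Clic6 began. Folr1 lies opposite Anapc15 and Rarres2 opposite Lrrc61, genes with 301 or more counts in each library, so their own counts are less certain. Over the 6 genes the sum was 82.2 CPM in replicate 1 and 10.6 CPM in replicate 2, a ratio of 7.76 (6.87 to 8.80). Without Ttr that ratio was 1.74 (1.46 to 2.08).

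The ciliated cell genes differed by no more than counting error. Foxj1, the master transcription factor of motile cilia, had 144 counts in replicate 1 and 107 in replicate 2 (ratio 1.17, 0.903 to 1.51). Ccdc153, a coiled-coil gene of ependymal cells, had 8 counts in each library (ratio 0.868, 0.284 to 2.65), and Tmem212 had 2 in replicate 1 and 5 in replicate 2. The summed ratio was 1.11 (0.872 to 1.43), and its interval lay below that of the choroid plexus sum with or without Ttr. Ccdc153 depended on the quantification, with 35.8 FASTQ-based counts in replicate 1 and 45.5 in replicate 2.

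**Figure D2:**
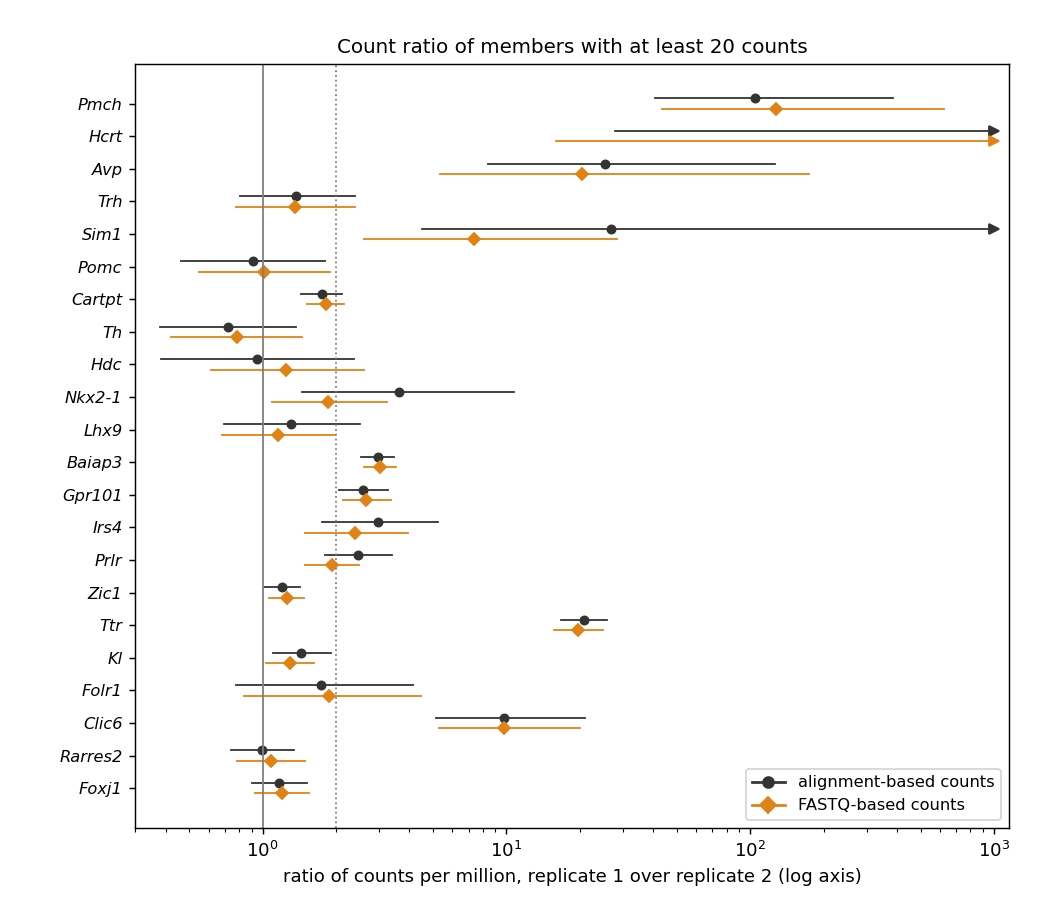
Ratio of CPM, replicate 1 over replicate 2, with exact 95% intervals on a log axis for the 22 genes with at least 20 counts, from alignment-based counts (black circles) and FASTQ-based counts (orange diamonds); arrows mark intervals that run past the axis and the dotted line is 2-fold. Pmch, Hcrt, Avp, Ttr and Clic6 lie far right of the rest in both quantifications, and Pomc, Th, Hdc, Rarres2 and Foxj1 straddle 1. Sim1 lies at 26.9 by alignment-based counts and at 7.34 by FASTQ-based counts.

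By size, 11 of the 22 genes with at least 20 counts were at least 2-fold higher in replicate 1 and 0 were at least 2-fold higher in replicate 2. Among all nuclear protein-coding genes with that many counts, 0.940% were at least 2-fold higher in replicate 1 and 0.789% in replicate 2. A ratio above 1 was found for 18 of the 22, beside 48.1% of all genes tested. The genes had been chosen for this difference, so these counts describe the choice. The other 13 genes had fewer counts, 2 of them none. The 11 were 9 of 16 hypothalamic genes and 2 of 5 choroid plexus genes, with 0 of 1 ciliated cell gene. Nearest to the 2-fold line were Prlr at 2.46 and Gpr101 at 2.59 on the inside and Cartpt at 1.75 and Folr1 at 1.74 on the outside. In the FASTQ-based counts 10 genes passed, where the background was also 0.940%: Otp reached 20 counts there, and Prlr and Nkx2-1 fell under 2-fold. For 8 of the 11 the lower end of the interval was itself at least 2, as it was for 0.281% of all genes tested.

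Most levels were low, although Ttr reached a TPM of 96.0 and Pmch 35.6 in replicate 1. A TPM of at least 1 was reached by 16 of the 35 genes in replicate 1, by 11 in replicate 2 and by 10 in both. Fewer cells of a type and less RNA per cell cannot be told apart in such bulk libraries. By summed ratio the order of the groups was lateral hypothalamus (131, 50.8 to 481), choroid plexus (7.76), paraventricular and supraoptic (5.30, 3.59 to 8.07), ventromedial (4.77, 1.04 to 44.3), other hypothalamic (2.17, 1.98 to 2.38), arcuate (1.53) and ciliated cells (1.11). The intervals of neighbours overlapped between choroid plexus, paraventricular and ventromedial groups, between ventromedial and other hypothalamic genes, and between arcuate and ciliated cell genes. Those of the lateral hypothalamus and of the choroid plexus did not overlap, nor did those of the other hypothalamic and arcuate genes. The intervals cover counting error only, and the genes were chosen for this difference, so the order is a description. Single genes carried some sums: the choroid plexus ratio was 1.74 without Ttr and the arcuate ratio 0.772 without Cartpt.

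**Figure D3:**
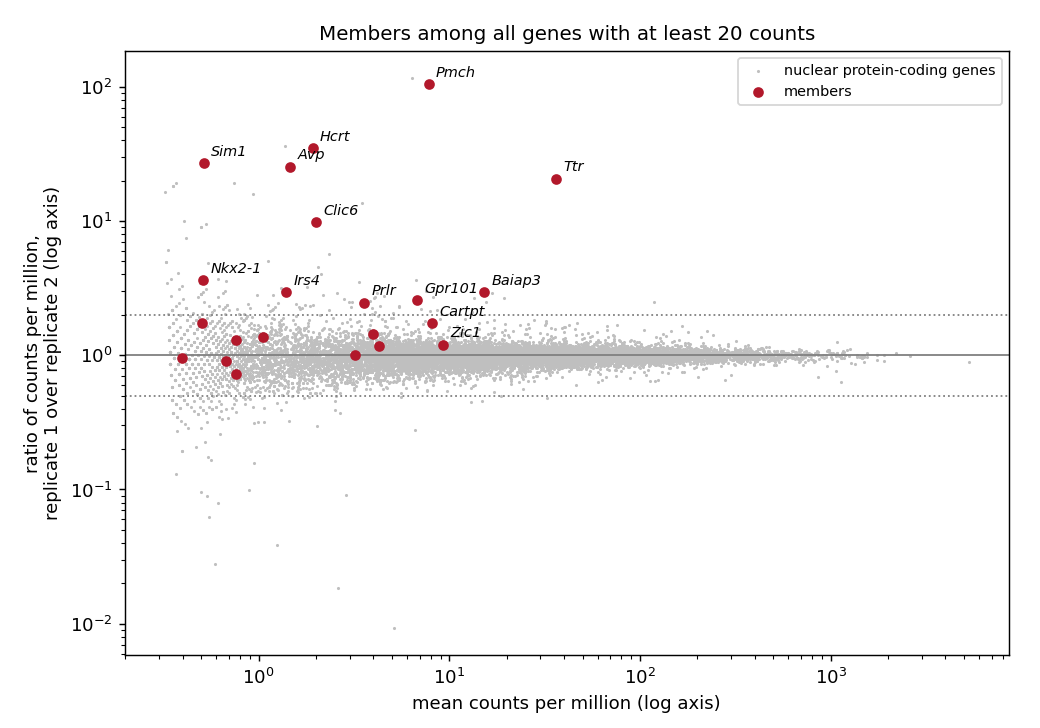
Mean CPM of both libraries against the CPM ratio, replicate 1 over replicate 2, for 14582 nuclear protein-coding genes (grey) with the 22 members that had at least 20 counts in red; both axes are log, dotted lines are 2-fold and genes at 0 counts in one library are drawn at its 3-count floor. Pmch and Ttr lie far above the grey band at their level. Cartpt lies at 1.75, above the 95th percentile of 1.29 over all these genes, and Zic1 lies at 1.20, below that percentile.

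Several members were read from a single transcript. All reads of Pmch, Hcrt, Gpr101, Ttr, Clic6 and Foxj1 were assigned to 1 transcript each. Baiap3 was more mixed: Baiap3-202 (4645 bases) led in replicate 1 with 45.8% of the gene's TPM but held 23.9% in replicate 2. The retained-intron transcript Baiap3-203 held 32.3% in replicate 1 and 25.8% in replicate 2, where it led. Retained-intron transcripts took 17.5% of Baiap3 counts in replicate 1 and 27.7% in replicate 2, and the TPM ratio was 2.03 beside the count ratio of 2.96. For Cartpt, Cartpt-201 held 67.1% in replicate 1 and 58.2% in replicate 2, but 31.7% of FASTQ-based TPM in replicate 1 and 40.0% in replicate 2. The long Prlr-202 (9900 bases) held 40.8% of Prlr TPM in replicate 1 and 57.2% in replicate 2, and Kl-201 held 96.9% of Kl in replicate 1 and 97.5% in replicate 2. Rarres2-205 led with 41.3% in replicate 1 and 50.7% in replicate 2, while another transcript led in the FASTQ-based table. Zic1 was led by Zic1-202 in replicate 1 (39.1%) and by the 395-base Zic1-203 in replicate 2 (44.7%), although Zic1-203 had 8.82 counts in replicate 1 and 13.2 in replicate 2. The leading transcript of Baiap3, Cartpt, Rarres2 and Zic1 therefore differed between libraries or between the tables.

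Further genes of the same tissues, not members, were listed from general knowledge with earlier results of these data known. They are described here and are no separate check of the members. Of 29 hypothalamic genes 13 had at least 20 counts, and 6 of these were at least 2-fold higher in replicate 1 and 0 in replicate 2, beside the backgrounds of 0.940% and 0.789%. Their median ratio was 1.53. Isl1, a LIM homeobox factor of arcuate and striatal neurons, had 58 counts in replicate 1 and 10 in replicate 2 (ratio 5.04, 2.55 to 11.1). Dlk1, an imprinted Notch-family ligand, had 326 counts in replicate 1 and 78 in replicate 2 (ratio 3.63, 2.83 to 4.71). The incretin receptor Glp1r reached a ratio of 2.97, the homeobox factor Six3 2.74 and the peptidase Ecel1 2.13. Hap1, the huntingtin-associated protein and the most abundant of the list, had a TPM of 69.8 in replicate 1 and 47.2 in replicate 2 (ratio 1.53), and the interneuron peptide Vip had a ratio of 1.08. Genes that several cortical or striatal neurons also express are thus mixed into this list.

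The further choroid plexus genes, listed in the same way, held some with large ratios and some near 1. Of 25 genes 19 had at least 20 counts, with a median ratio of 1.30. Of the 19, 8 were at least 2-fold higher in replicate 1 and 0 in replicate 2, beside the backgrounds of 0.940% and 0.789%. Of these 8, Tmem72 (0.841) and Trpv4 (1.82) were under 2-fold in the FASTQ-based counts. Cldn2, the claudin of plexus tight junctions, had 21 counts in replicate 1 and 1 in replicate 2 (ratio 18.2, 2.93 to 754). The bicarbonate transporter Slc4a5 had 28 counts in replicate 1 and 5 in replicate 2 (ratio 4.86, 1.85 to 16.1). The secreted peptide gene 1500015O10Rik followed with a ratio of 3.10 and the BMP antagonist Sostdc1 with 2.79. The abundant genes of the list differed less: Enpp2, which encodes autotaxin and is also expressed by oligodendrocytes, had a TPM of 123 in replicate 1 and 113 in replicate 2 (ratio 1.11). Igfbp2, Sulf1 and Car12 had ratios of 1.23, 1.13 and 1.30.

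The further ciliated cell genes leaned the other way by a small amount. Of 30 genes 21 had at least 20 counts, with a median ratio of 0.842. Of the 21, 1 was at least 2-fold higher in replicate 1 and 1 in replicate 2, beside the backgrounds of 0.940% and 0.789%. Their sum was 60.5 CPM in replicate 1 and 73.3 CPM in replicate 2, a ratio of 0.825 (0.774 to 0.879). Ccdc39, needed to build the axoneme of motile cilia, had 404 counts in replicate 1 and 477 in replicate 2 (ratio 0.735), and the axonemal dyneins Dnah5 and Dnah9 had ratios of 0.781 and 0.716. Rsph1, a radial spoke protein, had a ratio of 0.980. Mlf1 was the gene at least 2-fold higher in replicate 1, at 2.60 with an interval from 0.990 to 8.02, and Gmnc, a regulator of multiciliation, the one higher in replicate 2, at 0.413 and at 0.871 in the FASTQ-based counts. Tekt4 and Tekt1, tektins of ciliary microtubules, had ratios of 1.84 and 1.45. Of the 21 genes 4 had a ratio above 1, beside 48.1% of all genes tested.

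Receptors for the peptides and histamine ranged from 0 counts to well expressed. Of 21 receptor genes 13 had at least 20 counts. Of the 13, 2 were at least 2-fold higher in replicate 1, beside the background of 0.940%. The histamine receptor Hrh3 had a TPM of 42.2 in replicate 1 and 41.9 in replicate 2 (ratio 1.05). Mchr1, the receptor of melanin-concentrating hormone, had a TPM of 11.7 in replicate 1 and 10.2 in replicate 2 (ratio 1.18, 1.03 to 1.36), beside the ratio of 105 of its ligand's gene. Hrh1 and Hrh2 had ratios of 1.01 and 0.920. The vasopressin receptor Avpr1a (ratio 2.73, 1.13 to 7.56) and the thyrotropin-releasing hormone receptor Trhr (2.24, 1.67 to 3.02) were the 2 genes past 2-fold, followed by Galr1 at 1.80 and Mc4r at 1.61. In the FASTQ-based counts Trhr was under 2-fold at 1.86 and Galr1 was at 2.00. Peptide processing enzymes were level, 7 of 7 between 0.960 and 1.13, with carboxypeptidase Cpe at a TPM of 1005 in replicate 1 and 1076 in replicate 2. Pcsk2, Pam, Pcsk1n, Pcsk1 and Qpct had ratios of 0.960, 1.09, 1.07, 1.09 and 1.13.

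**Figure D4:**
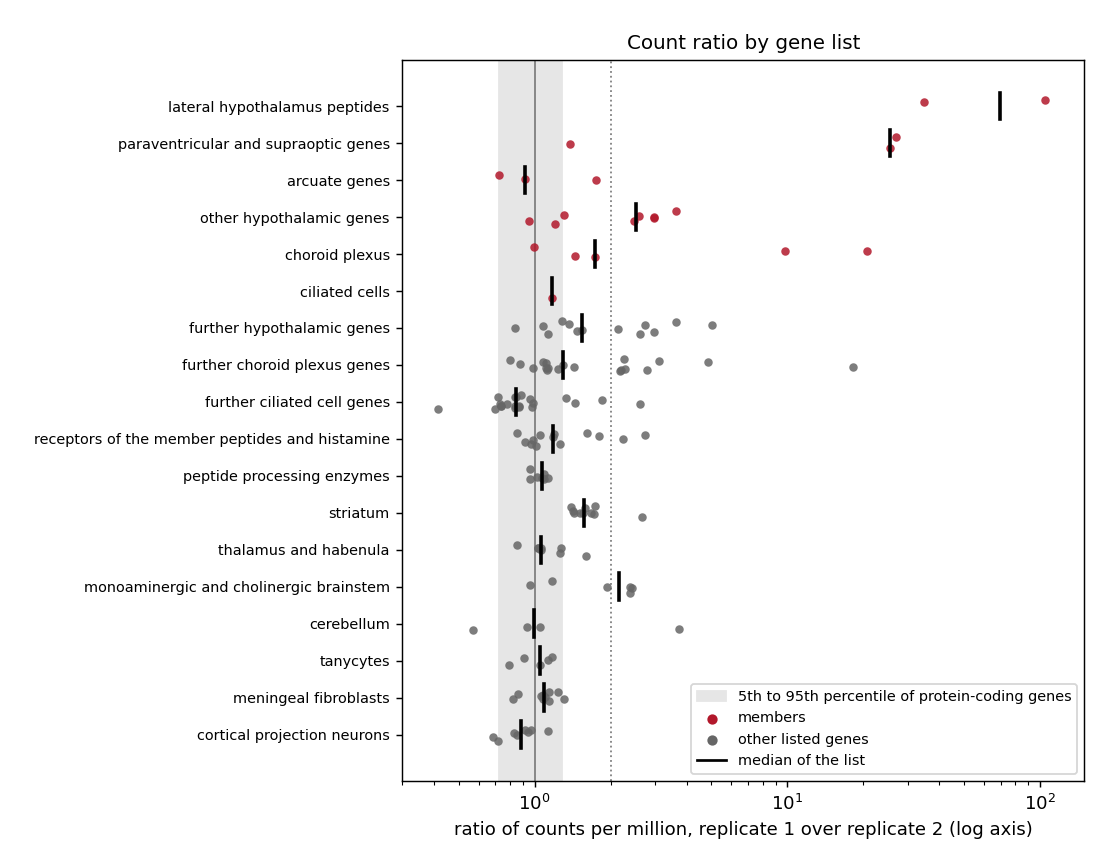
Ratio of CPM, replicate 1 over replicate 2, on a log axis for each gene with at least 20 counts, by list, with members in red, other genes in grey and list medians as black bars, Hcrt standing at its lower bound; the grey band runs from 0.723 to 1.29, the 5th to 95th percentile of protein-coding genes. The lateral hypothalamic genes, Avp, Sim1 and some choroid plexus genes lie far to the right, Trh lies at 1.37, striatal genes cluster near 1.57, and most cortical projection neuron and further ciliated cell genes lie below 1.

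Genes of other tissues moved with these differences to different degrees. All 10 striatal genes were higher in replicate 1, beside 48.1% of all genes tested, with ratios from 1.39 to 2.66. Their sums were 902 CPM in replicate 1 and 603 CPM in replicate 2. The cholinergic genes Chat, Slc5a7 and Slc18a3 had ratios of 2.39, 2.39 and 2.43, within a list of 10 brainstem and cholinergic genes whose sum was 14.3 CPM in replicate 1 and 8.46 CPM in replicate 2. Slc18a3 lies inside Chat on the same strand, so these are not 3 separate loci. They were the 3 past 2-fold among 6 genes of the list with at least 20 counts, beside the background of 0.940%. The monoamine-synthesis gene Ddc of the same list had a ratio of 0.955. Of the serotonin neuron genes in that list, the synthesis enzyme Tph2 had 27 counts in replicate 1 and 20 in replicate 2. The transporter Slc6a4 had 1 in replicate 1 and 3 in replicate 2, and the factor Fev had 0 in both. The thalamic and habenular list summed to 172 CPM in replicate 1 and 163 CPM in replicate 2. Of its 8 genes with at least 20 counts 0 were past 2-fold, beside the backgrounds of 0.940% and 0.789%. A ratio above 1 was found for 7 of the 8, beside 48.1% of all genes tested, and the largest was 1.60. Tanycyte genes, of the lining of the third ventricle, summed to 78.4 CPM in replicate 1 and 77.2 CPM in replicate 2, and their defining factor Rax had 0 counts in both. Meningeal fibroblast genes summed to 563 CPM in replicate 1 and 508 CPM in replicate 2, and cerebellar genes to 25.8 CPM in replicate 1 and 28.7 CPM in replicate 2.

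Pituitary and pineal genes were near 0 in the alignment-based counts. Of 10 pituitary genes 7 had 0 counts in both libraries, among them Prl, Gh and Cga, and the list held 4 counts in replicate 1 and 1 in replicate 2. The 6 pineal genes held 15 counts in replicate 1 and 21 in replicate 2. Cortical projection neuron genes lay lower in replicate 1, with a median ratio of 0.881 and ratios from 0.687 (Neurod6) to 1.13 (Bcl11b). Their sums, most of which came from Slc17a7 with its ratio of 0.963, differed less, at 1819 CPM in replicate 1 and 1930 CPM in replicate 2. Of these 8 genes 7 had a ratio under 1, while 48.1% of all genes tested had a ratio above 1. The part of any of these lists in the differences above was not tested.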

How the data were processed

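Total RNA of 2 left cortex libraries was analysed from the deposited tables. Per the labels and the description deposited with the files, the authors used mm10 with GENCODE M21 and quantified each library from transcriptome alignments and directly from FASTQ reads. For aligner and quantifier, names were not given in the sources used here. Within the deposited tables from alignments there are expected counts and TPM for each gene and each transcript's percent of the TPM of its gene, and the deposited FASTQ-based table gives estimated counts and TPM per transcript, summed per gene here. The authors' TPM is scaled over all entries, spike-ins included. Symbols were taken from the transcript table and matched by gene identifier to GENCODE M21 for coordinates.

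Expected counts were rounded, and libraries were scaled by the total over annotated genes (31191535 in replicate 1, 27079700 in replicate 2). The 26248 numbered entries, which name no gene, held 6.39e-06% of counts in replicate 1 and 1.81e-05% in replicate 2 and were left out with the spike-ins (0.350% in replicate 1, 0.378% in replicate 2). Ratios are replicate 1 over replicate 2 with exact Clopper-Pearson 95% intervals, checked on simulated data. They cover counting error only, since no source used here names molecular identifiers. Calls use 2-fold among genes with at least 20 counts over both libraries. The members and lists were chosen with earlier results of these data known. Every member is reported. Of each further list, the 4 genes with most counts and the 4 with the largest ratios in either direction among those with at least 20 counts are named, and beyond the lists the 10 genes with the largest and the 5 with the smallest ratios among those with at least 100 counts. Other genes were chosen after their values were seen. Protein sequences, planned for display, were not used here, and nucleotide sequences stand in their place. Alternatives were TMM factors (edgeR 4.0.16), DESeq2 1.42.0 size factors, TPM, FASTQ-based counts, pseudocounts, other minimum counts and folds, and each library alone. Promoters are from RefSeq on GRCm38.p6. The tools were R 4.3.3, and scipy 1.17.1, numpy 2.4.6, matplotlib 3.10.9 and pandas 2.3.3 under Python 3.11.15.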

Additional observations from a re-analysis of the deposited data

How the results depend on the processing

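The call of 11 members at least 2-fold higher in replicate 1 became 17 with no minimum count. It lay between 8 and 13 under the 7 other settings tried, among them TMM and DESeq2 factors, TPM, FASTQ-based counts, 1.5-fold and at least 50 counts. Genes such as Nms, with 1 count in replicate 1 and 0 in replicate 2, entered the 17. Oxt and Gal, each with 8 in replicate 1 and 2 in replicate 2, did so too. The share of all genes passing, 0.940% for the main call, was not computed for no minimum count, at least 50 counts or 1.5-fold. Those counts therefore have no background beside them. Summed ratios depended on single genes: the paraventricular ratio was 3.05 without Avp, the ventromedial ratio 1.74 without Fezf1, the other hypothalamic ratio 1.79 without Baiap3 and, chosen after seeing the data, 1.56 without Baiap3 and Gpr101, the choroid plexus ratio 1.74 without Ttr, and the ciliated ratio 0.668 without Foxj1. The arcuate ratio turned to 0.772 without Cartpt. Removing Pmch leaves 0 lateral hypothalamic counts in replicate 2 and no ratio. FASTQ-based counts gave a choroid plexus ratio of 6.39.

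With log2(CPM + 1) over all members, which shrinks low genes, the median log2 ratio was 3.06 for lateral, 0.66 for paraventricular and 0.24 for other hypothalamic genes, and with a pseudocount of 0.1 it was -0.15 for ciliated genes. FASTQ-based TPM gave higher group medians: 1.86 (paraventricular), 1.04 (arcuate), 1.13 (other hypothalamic), 1.96 (choroid plexus) and 3.72 (ciliated). In deposited TPM the Zic1 ratio turned to 0.894 and the Baiap3 ratio was 2.03. The causes were not tested.

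Taking each library alone, median TPM ran from 0.175 to 23.7 for lateral hypothalamic, 0.26 to 0.85 for paraventricular, 0.28 to 0.71 for arcuate, 0.02 to 0.12 for ventromedial, 0.27 to 0.56 for other hypothalamic, 0.94 to 1.45 for choroid plexus and 0.58 to 0.61 for ciliated genes. The higher of each pair of medians was that of replicate 1, except for arcuate and ciliated genes, where it was that of replicate 2. No paired analysis was possible because the series has 1 group. Depth limits the 13 members with fewer than 20 counts most.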

Other observations

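Ranked by count ratio among 12774 nuclear protein-coding genes with at least 100 counts over both libraries, Hcrt, Pmch, Ttr and Clic6 stood at ranks 2, 4, 5 and 7. The other genes among the first 10 fell into 2 kinds. Gpr149, an orphan receptor, had 125 counts in replicate 1 and 19 in replicate 2 (ratio 5.71, 3.51 to 9.80), and the X-linked Arhgap36, a regulator of hedgehog signalling, had 105 in replicate 1 and 20 in replicate 2 (4.56, 2.81 to 7.77). In the FASTQ-based counts the ratios were 5.14 for Gpr149 and 5.20 for Arhgap36. Gm14440, Hist1h2ao and Nnt depended on the quantification, and Gm49342 had a ratio of 4.00 by alignment and 2.78 from FASTQ reads. Nnt, the mitochondrial transhydrogenase, had an alignment-based ratio of 13.6 and a FASTQ-based ratio of 1.63. Gm14440 had 399 counts in replicate 1 and 0 in replicate 2 by alignment, and 0 in replicate 1 and 36.8 in replicate 2 from FASTQ reads.

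Of the 5 genes with the smallest ratios, Thbs4, which encodes the matrix protein thrombospondin 4, kept its direction in both quantifications (ratios 0.277 and 0.297). The remaining genes, Hist1h2ap, Gm14288, 1700047I17Rik2 and Fam220a, had a FASTQ-based ratio between 0.890 and 1.32 or no FASTQ-based reads to compare.

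Several low genes, named after their values were seen, had alignment-based counts in replicate 1 only or nearly so. The calcitonin receptor gene Calcr had 16 counts in replicate 1 and 1 in replicate 2, the roof-plate factor Lmx1a 8 in replicate 1 and 0 in replicate 2, and the potassium channel subunit gene Kcne2 of the plexus 10 in replicate 1 and 0 in replicate 2.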
